A study of Homo sapiens with 4 samples.

Results

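Of the 29209 genes listed in the deposited tables, 9 were taken by symbol as transcription factors that establish or mature the keratinocyte lineage: TP63, TFAP2A, KLF5, GRHL2, GRHL1, GRHL3, KLF4, ZNF750 and OVOL1. They were measured by polyA RNA-seq in HaCaT, a spontaneously immortalised human keratinocyte line. The TCN1_OE cells carried a lentivirus made to overexpress TCN1, which encodes the secreted vitamin B12 binder haptocorrin, and gave 2 libraries. The negative control line (NC), also HaCaT, gave the other 2 libraries; its vector is not described in the labels. All 4 libraries shared a harvest at 48 h, a density of 20 to 30%, 10% serum and 1.5 µg of RNA input. The labels do not say whether a line was a clone or a mixed population, nor whether the replicates of a line were grown separately. The p-values therefore cover no more than the scatter among these 4 libraries, part or all of which may be technical. The comparison asks which genes differ when TCN1 is overexpressed.

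Stratified epithelia are specified by p63, the TP63 product, which keeps basal keratinocytes in their lineage and opens chromatin at epidermal genes together with AP-2 factors. Grainyhead-like factors (GRHL1, GRHL2 and GRHL3) maintain epithelial junctions and the skin barrier, and the Krüppel-like factor KLF5 is known from proliferating basal cells. ZNF750, a zinc-finger protein induced by p63, acts with KLF4 to switch on terminal differentiation, and OVOL1 restrains proliferation as cells leave the basal layer.

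None of the 9 factors passed the test for a difference between TCN1_OE and NC cells with group as the only term. A fit with the replicate number as a second term called KLF5 and GRHL3, and 19% of all genes tested. It is given with its limits in the closing section. All 9 were abundant enough to be tested with edgeR's quasi-likelihood test on counts. The number with a Benjamini-Hochberg adjusted p under 0.05 was 0, where 0.496% of the 15113 genes tested passed, 0.285% higher and 0.212% lower. At an unadjusted p under 0.05 there was 1, GRHL3, where 12.8% of all genes fell under that value. DESeq2 called 0 of the 8 factors to which it gave an adjusted p, where it called 1.75% of 11654 genes. Limma on log2(FPKM + 0.5) called 0 of the 8 with a mean of at least 1 FPKM. Limma called 1 gene in all, so its 0 here and in the lists below tells little about them. Of the 9 log2 fold changes, 6 were positive and 3 negative, with a median of 0.0088, beside 0.0016 over all genes tested. The median size of a factor's log2 fold change, regardless of sign, was 0.046, beside 0.167 over all genes tested. These medians were not matched for level. The SE of the factors ran from 0.080 (TP63) to 0.32 (ZNF750), and the median SE over all genes tested was 0.163. Counts scaled to the total of the genes tested and to edgeR's TMM factors (CPM) did not overlap between the groups for 2 factors, KLF5 and GRHL3. Of all genes tested, 43% had groups that did not overlap.

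The files checked out as keratinocyte libraries with the labelled construct. TCN1 had 68.3 and 56.6 FPKM (counts divided by gene length in kilobases and by depth) in TCN1_OE, against 1.67 and 0.978 FPKM in NC, a log2 fold change of 5.48 ± 0.20 (SE; edgeR adjusted p 2.4e-06). All 10 keratinocyte markers examined were above 1 FPKM in the mean, the lowest being TP63 itself, and KRT14 and KRT5 were the highest. The simple epithelial keratins KRT8, KRT18, KRT19 and KRT7 were present too, with summed levels of 1606 and 1863 FPKM in TCN1_OE and 1511 and 1694 FPKM in NC. KRT19 carried most of that sum, and the others stood lower in TCN1_OE without passing, KRT18 at -0.50 ± 0.094 (edgeR adjusted p 0.054), KRT8 at -0.20 ± 0.10 and KRT7 at -0.16 ± 0.088 on the log2 scale. Listed markers of melanocytes, fibroblasts, endothelium, T cells, myeloid cells and Merkel cells summed to at most 3.05 FPKM per cell type in any library. Library totals ran from 11593377 to 19973550 counts. The smallest count of any of the 9 factors was 32, for ZNF750 in NC replicate 2.

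KLF5 and GRHL3 were the factors whose groups did not overlap, as was the case for 43% of all genes tested (CPM). The sequence upstream of the annotated starts of KLF5 and GRHL3 is shown for that reason. RefSeq (GRCh38.p14) gives a pair of starts for each gene, and the 250 bases before each start are printed 5′ to 3′ on the gene's strand. Capitals mark matches to the KLF motif CCNCNCCC, the AP-2 motif GCCNNNGGC or the SNAI and ZEB E-box CAGGTG, on either strand.
GRHL3, chr1:24319107-24319356, plus strand: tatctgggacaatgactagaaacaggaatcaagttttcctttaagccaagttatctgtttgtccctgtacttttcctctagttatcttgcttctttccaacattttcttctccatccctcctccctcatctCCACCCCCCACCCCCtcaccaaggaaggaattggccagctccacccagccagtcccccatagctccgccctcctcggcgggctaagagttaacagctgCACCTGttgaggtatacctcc
GRHL3, chr1:24322790-24323039, plus strand: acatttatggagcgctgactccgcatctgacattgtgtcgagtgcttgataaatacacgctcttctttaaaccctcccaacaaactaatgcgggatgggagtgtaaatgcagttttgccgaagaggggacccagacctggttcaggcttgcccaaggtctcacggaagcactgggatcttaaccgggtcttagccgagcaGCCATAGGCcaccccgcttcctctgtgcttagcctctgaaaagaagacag
KLF5, chr13:73054726-73054975, plus strand: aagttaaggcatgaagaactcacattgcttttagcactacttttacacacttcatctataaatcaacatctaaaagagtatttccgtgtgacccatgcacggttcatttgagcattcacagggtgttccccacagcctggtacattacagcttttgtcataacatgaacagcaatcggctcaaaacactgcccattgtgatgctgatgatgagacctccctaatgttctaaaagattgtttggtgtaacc
KLF5, chr13:73058755-73059004, plus strand: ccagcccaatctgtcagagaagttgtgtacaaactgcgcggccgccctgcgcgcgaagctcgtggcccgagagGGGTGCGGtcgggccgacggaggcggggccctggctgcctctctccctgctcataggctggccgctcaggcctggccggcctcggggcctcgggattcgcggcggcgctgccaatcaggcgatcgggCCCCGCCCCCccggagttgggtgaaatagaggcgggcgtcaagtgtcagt

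The paired starts of each gene had unlike upstream sequence. At KLF5 the upstream start lay in a window of 40.8% GC with 3 CpG dinucleotides and no KLF motif. The downstream KLF5 start lay in a window of 70.8% GC with 27 CpG and 3 KLF motif matches. At GRHL3 the windows held 50.8% GC with 3 CpG and 52.0% GC with 10 CpG; the first held 3 KLF matches and 1 E-box, and the second 1 AP-2 match. Among 35114 promoter windows of the same length, the median was 58% GC, and 53.4% held the KLF motif, 19.8% the AP-2 motif and 17.5% the E-box. Some KLF matches overlap each other. RefSeq windows were matched for 6 of the 9 factors, 9 windows in all. In none of these 9 windows were the letters of the grainyhead motif AACNGGTT (1.49% of all windows) or the OVO motif CCGTTA (2.45%) found. A match describes letters only, and the gene counts do not tell which start was used. GENCODE release 29 lists 5 coding starts of GRHL3 and begins the gene at 24319322, inside the first GRHL3 window.

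In order of level, KLF5 was the most abundant factor and ZNF750 the least, and all 4 libraries kept KLF5, TP63 and GRHL2 on top. Mean levels over the 4 libraries were 145.0 FPKM for KLF5, 64.8 FPKM for TP63, 26.6 FPKM for GRHL2 and 10.4 FPKM for TFAP2A. They were 8.72 FPKM for GRHL3, 8.09 FPKM for OVOL1, 5.15 FPKM for KLF4, 2.35 FPKM for GRHL1 and 0.777 FPKM for ZNF750. Neighbours in this order did not overlap over the 4 libraries, except TFAP2A with GRHL3 and GRHL3 with OVOL1. KLF5 ranked 167 and ZNF750 ranked 12240 among the 29209 genes by mean FPKM. The 9 factors summed to 284.6 and 268.2 FPKM in TCN1_OE and 270.7 and 264.0 FPKM in NC, and KLF5 made up between 51.5% and 55.0% of that sum. The FPKM plot by library shows this range and how narrowly most factors were spread.

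**Figure D1:**
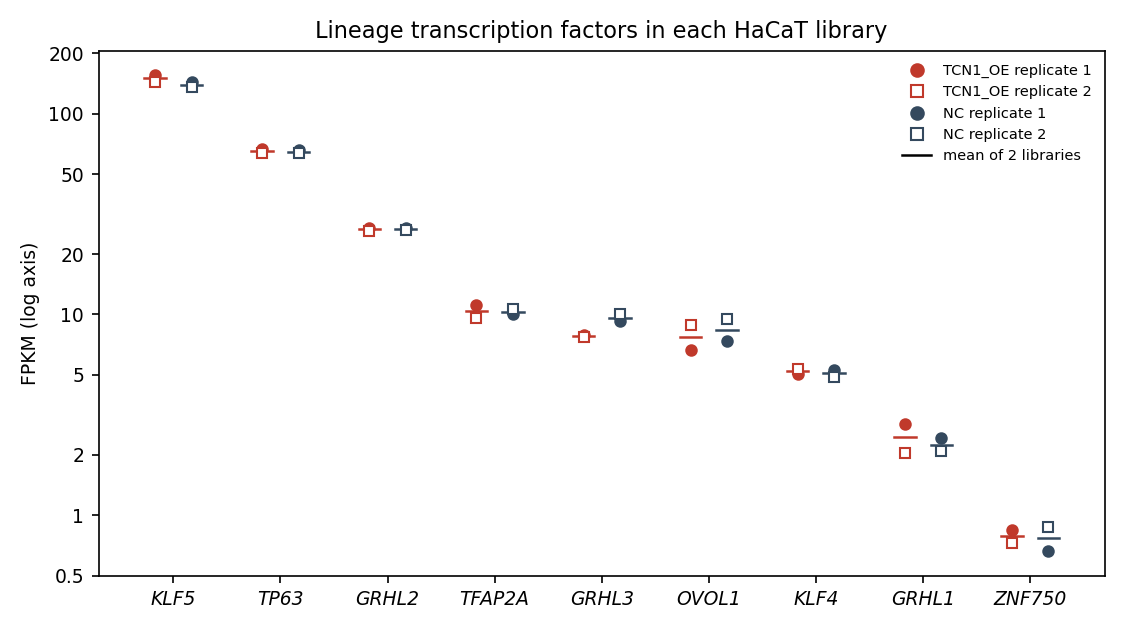
FPKM (log axis) of the 9 lineage factors in each library, ordered by mean level; points are libraries, with TCN1_OE in red and NC in dark blue, and short lines are the means of 2 libraries. KLF5 lies at 136 FPKM or more in every library and ZNF750 under 1 FPKM, and GRHL3 and KLF5 are the factors whose groups do not overlap. By CPM, 43% of all genes tested had groups that did not overlap.

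TP63, the lineage-defining factor (ENSG00000073282; GRCh38, chromosome 3, 189631416 to 189897279, plus strand), had 66.4 and 63.5 FPKM in TCN1_OE, against 65.6 and 63.7 FPKM in NC. The groups overlapped fully, and each pair of libraries differed by more within a group than the means did between groups. Its log2 fold change was 0.0033 ± 0.080 (edgeR adjusted p 0.991), with a 95% interval from -0.18 to 0.18, or 0.885-fold to 1.13-fold. GENCODE release 29 lists 12 coding transcripts of TP63 with 6 different starts. The counts sum over all of them, so the TA and ΔN forms of p63, which are made from different promoters, were not told apart.

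TFAP2A encodes AP-2α, which binds keratin gene promoters and acts beside p63 in surface ectoderm. It lies on chromosome 6 at 10393186 to 10419659, on the minus strand. It had 11.2 and 9.62 FPKM in TCN1_OE, against 10.0 and 10.6 FPKM in NC. The TCN1_OE libraries held both the highest and the lowest value, and the log2 fold change was 0.0088 ± 0.11 (edgeR adjusted p 0.982). Of its exonic bases 16.7% lie under the antisense genes TFAP2A-AS1 and TFAP2A-AS2, and the library kit named in the labels does not mark strand, so reads there cannot be assigned to one of them.

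KLF5 (ENSG00000102554; chromosome 13, 73054976 to 73077542, plus strand) had 157 and 144 FPKM in TCN1_OE, against 143 and 136 FPKM in NC. Both TCN1_OE libraries stood above both NC libraries, where 43% of all genes tested had groups that did not overlap (CPM). TCN1_OE replicate 2 and NC replicate 1 were less than 1 FPKM apart. The log2 fold change was 0.10 ± 0.083 (edgeR adjusted p 0.661), and the interval ran from -0.082 to 0.29.

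GRHL2, the grainyhead factor known for control of E-cadherin and claudin genes, lies on chromosome 8 at 101492432 to 101669726, on the plus strand. The groups overlapped, with 27.1 and 26.1 FPKM in TCN1_OE and 26.9 and 26.4 FPKM in NC. Its log2 fold change was -0.0072 ± 0.085 (edgeR adjusted p 0.982), with an interval from -0.20 to 0.18.

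GRHL1, known as a regulator of the desmosomal cadherin gene DSG1 (chromosome 2, 9951693 to 10002277, plus strand), had 2.85 and 2.04 FPKM in TCN1_OE, against 2.41 and 2.08 FPKM in NC. TCN1_OE replicate 1 was the highest library and TCN1_OE replicate 2 the lowest. The log2 fold change was 0.11 ± 0.18 (edgeR adjusted p 0.852), and the interval reached from -0.30 to 0.52.

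GRHL3 stood lower in TCN1_OE, without passing the test with group as the only term. This factor is needed for barrier formation and epidermal wound closure in mice, and its human gene (ENSG00000158055) lies on chromosome 1 at 24319322 to 24364482, on the plus strand. Its counts were 556 and 488 in TCN1_OE, against 789 and 496 in NC, which gave 7.86 and 7.75 FPKM in TCN1_OE, against 9.26 and 10.0 FPKM in NC. Both TCN1_OE libraries lay below both NC libraries, where 43% of all genes tested had groups that did not overlap (CPM). The TCN1_OE libraries were closer together than the NC libraries. The mean was 7.81 ± 0.07 FPKM in TCN1_OE and 9.64 ± 0.54 FPKM in NC (SD, n = 2 each). The log2 fold change was -0.31 ± 0.12, with an unadjusted p of 0.0252 and an edgeR adjusted p of 0.302. Its interval, not adjusted for the number of genes, ran from 0.675-fold to 0.968-fold. Of all genes tested, 72.7% had a smaller log2 fold change in size.

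KLF4, the barrier factor (chromosome 9, 107484852 to 107490482, minus strand), had 5.05 and 5.35 FPKM in TCN1_OE, against 5.30 and 4.90 FPKM in NC. Its groups overlapped, with a log2 fold change of 0.022 ± 0.15 (edgeR adjusted p 0.968) and an interval from -0.31 to 0.35.

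ZNF750 (chromosome 17, 82829435 to 82840578, minus strand) had the fewest counts of the 9 factors, with 44 and 34 counts in TCN1_OE and 42 and 32 counts in NC. These were 0.840 and 0.730 FPKM in TCN1_OE and 0.666 and 0.874 FPKM in NC, with NC libraries at both extremes. The log2 fold change was 0.046 ± 0.32 (edgeR adjusted p 0.968). The interval ran from 0.633-fold to 1.68-fold, and these libraries could not tell a change within it from no change.

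OVOL1 (chromosome 11, 65787022 to 65797219, plus strand) had 6.66 and 8.86 FPKM in TCN1_OE, against 7.37 and 9.46 FPKM in NC. Replicate 2 was higher than replicate 1 in both groups, by 0.41 on the log2 scale in TCN1_OE and 0.36 in NC, while the difference between groups was -0.11 ± 0.18 (edgeR adjusted p 0.843). Of its exonic bases 27.1% lie under the antisense gene AP001266.1, so reads there cannot be assigned to 1 of the genes. The OVOL1 counts may hold reads of both genes or leave such reads out.

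The plot of fold changes sets the factors beside each other by the width of their intervals. The intervals of TP63, GRHL2 and KLF5 were the narrowest, those of GRHL1, OVOL1 and ZNF750 the widest, and GRHL3 alone had an unadjusted interval clear of 0. A p-value that misses the threshold does not show that the levels were alike; the intervals give the sizes of change that the 4 libraries leave possible.

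**Figure D2:**
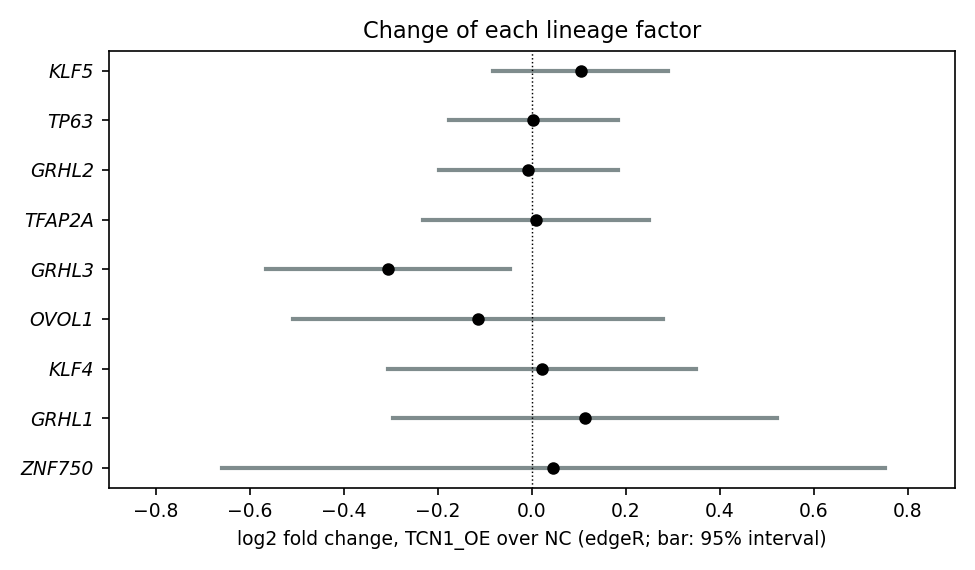
Log2 fold change of each factor, TCN1_OE over NC, from edgeR (points) with its 95% interval, not adjusted over genes (bars). GRHL3, at -0.31, is the factor whose bar does not reach 0, and the bar of ZNF750 is the widest, from -0.66 to 0.75.

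Apart from TP63 and ZNF750, the factors belong to 4 families described here, and in AP-2 and OVOL the most abundant relative was another gene. TFAP2C, the AP-2γ gene, had 24.7 and 26.2 FPKM in TCN1_OE and 24.3 and 26.1 FPKM in NC, above TFAP2A in every library; its log2 fold change was 0.010 ± 0.10 (edgeR adjusted p 0.980). OVOL2, known for suppressing mesenchymal genes in epithelia, had 9.88 and 11.8 FPKM in TCN1_OE, against 8.25 and 8.57 FPKM in NC. Both TCN1_OE libraries were above both NC libraries in OVOL2, where 43% of all genes tested had groups that did not overlap (CPM). The log2 fold change of OVOL2, 0.37 ± 0.15, did not pass (edgeR adjusted p 0.348). OVOL2 exceeded OVOL1 in both TCN1_OE libraries and in NC replicate 1, but not in NC replicate 2. Whether OVOL1 and OVOL2 differed in their response was not tested.

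Among the grainyhead genes, GRHL2 made up 71.6% and 72.7% of the summed GRHL1, GRHL2 and GRHL3 level in TCN1_OE, against 69.7% and 68.6% in NC. GRHL3 made up 20.8% and 21.6% in TCN1_OE, against 24.0% and 26.0% in NC. The sum itself was 37.8 and 35.9 FPKM in TCN1_OE and 38.6 and 38.5 FPKM in NC. The distant relatives TFCP2 and UBP1 stood at -0.079 ± 0.10 and -0.033 ± 0.093 on the log2 scale, and TFCP2L1, with 93 and 93 counts in TCN1_OE and 198 and 95 counts in NC, at -0.615 ± 0.21 (edgeR adjusted p 0.250).

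KLF5 held between 60.5% and 62.1% of the summed KLF family level in every library, and 0 of the 13 KLF genes tested passed (edgeR). The next KLF genes were KLF3, a repressor that competes for KLF sites, with 30.5 and 27.9 FPKM in TCN1_OE and 23.7 and 24.2 FPKM in NC, and KLF10, with 20.2 and 20.4 FPKM in TCN1_OE and 20.9 and 20.6 FPKM in NC. KLF3 stood at 0.28 ± 0.088 (edgeR adjusted p 0.213). KLF8 had 5.69 and 5.12 FPKM in TCN1_OE and 4.205 and 3.876 FPKM in NC, at 0.41 ± 0.11 (edgeR adjusted p 0.148).

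**Figure D3:**
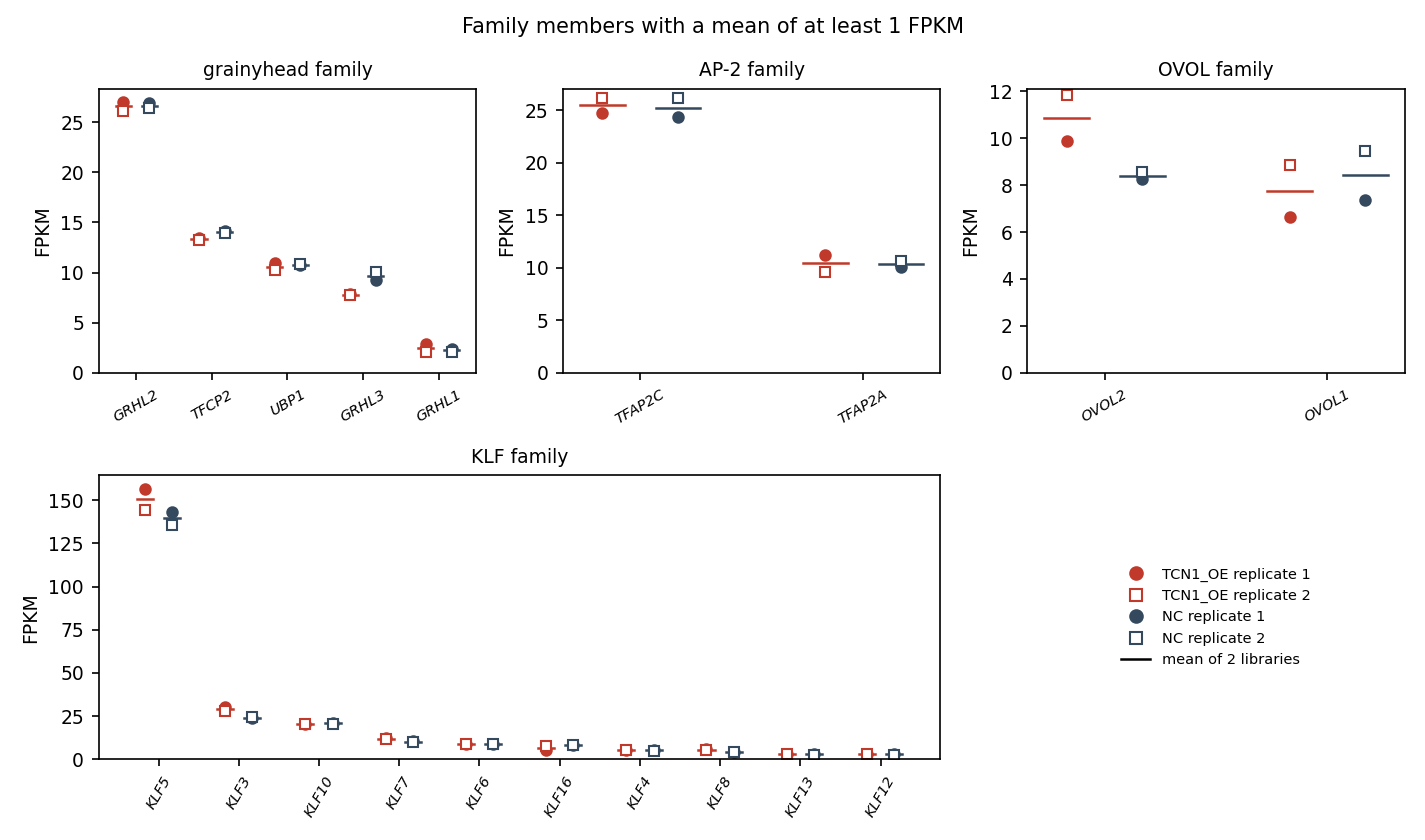
FPKM of the grainyhead, AP-2, OVOL and KLF genes whose mean reached 1 FPKM; points are libraries (TCN1_OE red, NC dark blue) and short lines are means of 2 libraries. GRHL2, TFAP2C, OVOL2 and KLF5 have the highest mean of their families, so that TFAP2A and OVOL1 each come after a relative.

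Genes that act with or under the 9 factors were counted from lists of known regulators, partners and targets. Each count reads against all 15113 genes tested, of which 0.285% passed edgeR as higher and 0.212% as lower, 12.8% had an unadjusted p under 0.05 and 7608 had a positive log2 fold change. Of 36 other keratinocyte transcription regulators tested, 0 passed edgeR, 6 had an unadjusted p under 0.05 (5 higher and 1 lower; 12.8% of all genes) and the median log2 fold change was 0.12, with 30 positive. The epithelial ETS factor ELF3 came closest, with 23.1 and 27.4 FPKM in TCN1_OE, against 17.3 and 18.9 FPKM in NC, at 0.48 ± 0.11 (edgeR adjusted p 0.1002), and it was the 1 regulator that DESeq2 called. The hair follicle regulator RUNX1 stood at -0.35 ± 0.092, the Notch receptor gene NOTCH3 at 0.53 ± 0.16 and KLF3 as above. Limma called 0 of the 32 that it tested.

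Of 28 genes known as p63 targets, 0 passed edgeR, 0 passed DESeq2 or limma, 5 had an unadjusted p under 0.05 (3 higher and 2 lower; 12.8% of all genes) and the median was 0.099. The hexokinase HK2 stood at -0.36 ± 0.11, the desmosomal protein gene PERP at 0.26 ± 0.082, the hemidesmosome gene DST at 0.27 ± 0.088 and the kinase CHUK at -0.35 ± 0.12. The basal keratins KRT5 and KRT14 stood at 0.13 ± 0.087 and 0.035 ± 0.097; they were named outside the rule, as defining markers of the lineage.

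Of 21 tested genes known as GRHL targets, 1 rose (edgeR), the tight junction scaffold TJP1, and 0 fell, where 0.285% of all genes tested rose and 0.212% fell. The list had a median of 0.19, with 15 positive. At an unadjusted p under 0.05, 4 of its genes were higher and 1 lower, where 12.8% of all genes fell under that value. TJP1 was low, at 1.59 and 1.32 FPKM in TCN1_OE, against 0.646 and 0.389 FPKM in NC, and its log2 fold change was 1.46 ± 0.24 (edgeR adjusted p 0.0431). TGM5, a transglutaminase of the cornified layer, stood at 1.54 ± 0.34, MAL2, a membrane traffic protein, at -0.29 ± 0.081, and the small GTPase gene RAB15 at 0.49 ± 0.14, and these did not pass. E-cadherin (CDH1), named outside the rule as the best-known GRHL2 target, had 66.9 and 70.0 FPKM in TCN1_OE, against 67.9 and 69.5 FPKM in NC (edgeR adjusted p 0.979). DSG1, named outside the rule as a known GRHL1 target, had 1.71 and 2.00 FPKM in TCN1_OE, against 1.35 and 1.07 FPKM in NC. It stood at 0.60 ± 0.19 and did not pass (edgeR adjusted p 0.228). DESeq2 called TJP1 alone; limma called 0 of the 16 genes of this list with a mean of at least 1 FPKM, which leave out TJP1.

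Of 28 differentiation genes that KLF4 and ZNF750 are known to promote, 19 had enough counts to be tested. Of these 19, 4 rose (edgeR) and 0 fell, where 0.285% of all genes tested rose and 0.212% fell. The median of the 19 was 0.68, with 15 positive and 4 negative. At an unadjusted p under 0.05, 9 were higher and 0 lower, where 12.8% of all genes fell under that value. The negative genes, named outside the rule, were FLG at -0.023 ± 0.13, DMKN at -0.27 ± 0.13, LORICRIN at -0.48 ± 0.50 and KRT78 at -0.38 ± 0.70. KRT10, a keratin of suprabasal layers, had 245 and 244 FPKM in TCN1_OE, against 137 and 134 FPKM in NC (edgeR adjusted p 0.0038). Its partner KRT1 had 376 and 394 FPKM in TCN1_OE, against 223 and 229 FPKM in NC (edgeR adjusted p 0.0071). In these keratins and in the next pair both TCN1_OE libraries stood above both NC libraries, and 43% of all genes tested had groups that did not overlap. CASP14, a protease of cornifying cells, had 6.81 and 7.27 FPKM in TCN1_OE, against 3.47 and 2.79 FPKM in NC (edgeR adjusted p 0.0285). SPRR1B, which is cross-linked into the cornified envelope, had 60.2 and 55.1 FPKM in TCN1_OE, against 31.5 and 34.8 FPKM in NC (edgeR adjusted p 0.0431). DESeq2 called the same genes and ECM1 besides, and limma called 0 of the 14 that it tested. These genes had been seen to rise in an earlier reading of the same libraries, so the count is no independent evidence. KLF4 and ZNF750 themselves stood at 0.022 ± 0.15 and 0.046 ± 0.32 in the same libraries. Their activity was not measured, and its part in the levels of these genes was not tested. Mitochondrially encoded genes took 6.04% and 5.65% of counts in TCN1_OE, against 5.33% and 5.13% in NC, and their part in the result was not tested. TGM1, the barrier transglutaminase, named outside the rule as a member of both lists, had 16 and 103 counts in TCN1_OE and 21 and 33 counts in NC.

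Of 12 mesenchymal transition factors and partners 4 could be tested. Of these, fibronectin FN1 fell by 0.55 ± 0.091 on the log2 scale (edgeR adjusted p 0.0431) and 0 rose. At an unadjusted p under 0.05, 0 were higher and 2 lower (12.8% of all genes). N-cadherin CDH2 stood at -1.11 ± 0.23 (edgeR adjusted p 0.0748), SNAI2 at -0.087 ± 0.11 and TCF4 at -0.23 ± 0.20. DESeq2 called FN1 and CDH2, and limma called 0 of the 2 that it tested. ZEB1, which OVOL factors are known to repress, was named outside the rule with ZEB2 and SNAI1. It had 2 and 6 counts in TCN1_OE and 3 and 3 counts in NC, and ZEB2 and SNAI1 had at most 4 counts in any library. Of 23 chromatin partners and modifiers of the lineage factors 0 passed edgeR, with 5 at an unadjusted p under 0.05 (1 higher and 4 lower; 12.8% of all genes) and a median of -0.016. The maintenance methyltransferase gene DNMT1 stood at -0.45 ± 0.085 (edgeR adjusted p 0.0551) and was called by DESeq2, and its partner UHRF1 stood at -0.46 ± 0.11. The tumour suppressor gene WWOX stood at 0.37 ± 0.13 and the corepressor gene CTBP2 at -0.26 ± 0.097.

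**Figure D4:**
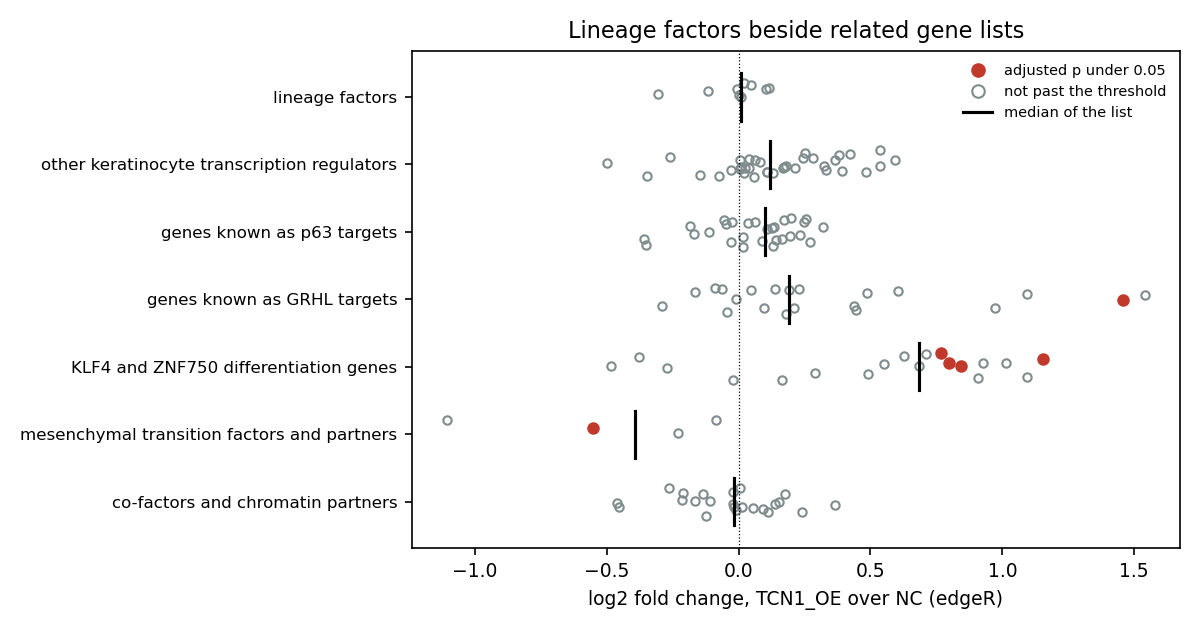
EdgeR log2 fold changes, TCN1_OE over NC, of the tested genes of each list (circles), with genes past an adjusted p of 0.05 filled in red and the list median as a black line. The 9 lineage factors lie between -0.31 and 0.11 with none filled, while the differentiation list has 4 filled genes and a median of 0.68. Genes of that list had been seen to rise in an earlier reading of the same libraries, so its count is no independent evidence.

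The genes whose pattern over the 4 libraries was most like that of GRHL3 and KLF5, the factors with the smallest unadjusted p, were taken by distance between log2 CPM values centred on each gene's mean, among 6681 genes of at least 5 FPKM. For GRHL3 these were BCS1L, a mitochondrial complex III assembly factor, at a distance of 0.018, DTYMK, thymidylate kinase, at 0.032, and FIBP at 0.035. BCS1L had 11.2 and 11.2 FPKM in TCN1_OE, against 13.2 and 14.5 FPKM in NC. For KLF5 they were the acyl-CoA synthetase ACSL3 at 0.011, the ERBB2-binding protein ERBIN at 0.014 and TM9SF2 at 0.022. With 4 libraries such likeness is common: 116 genes lay within 0.1 of GRHL3 and 472 within 0.1 of KLF5.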

How the data were processed

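PolyA RNA of HaCaT cells was sequenced from 2 TCN1_OE and 2 NC libraries; groups and replicate numbers come from the sample titles. The submitters' processing notes name HISAT2, HTSeq 0.13.5 and GRCh38. The annotation release and strand setting of the counting were not given in the sources used here. Per the file headers, the authors deposited a raw count and an FPKM value per gene. Counts divided by FPKM and library total gave whole gene lengths, within 0.001 bp, in 100% of values above 0, so both deposited columns rest on the same counts.

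Counts were tested with edgeR 4.0.16 (quasi-likelihood, robust, TMM factors, group as the only term, R 4.3.3) on the 15113 genes kept by filterByExpr with a minimum count of 10, with Benjamini-Hochberg adjustment over all of them. The SE is the log2 fold change divided by the square root of F, and intervals are 95%, from edgeR's degrees of freedom. With 2 libraries a group, each gene's spread was estimated with help from the other genes. Annotation overlaps are from GENCODE release 29. The steps were tested on simulated counts. There 9 of 50 genes changed 1.25-fold, 27 of 50 changed 1.5-fold and 46 of 50 changed 2-fold were recovered. Among the genes left unchanged there were 11 false calls. Alternatives used DESeq2 1.42.0, limma 3.58.1, other filters and scalings, the replicate number as a block, and leaving out each library.

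The 9 factors and TCN1 were named, and from each list up to 4 genes with the smallest adjusted p and any that passed; other genes are said to be outside this rule, and relatives of the factors were named for their level. The factors and lists were chosen with earlier results of these data known. Of the listed genes 5 had no row in the tables used and were not analysed here, and a relative of 1 factor is not reported here.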

Additional observations from a re-analysis of the deposited data

How the results depend on the processing

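Among the factors that an alternative tested, 0 were called under 13 of the 14 alternatives; ZNF750 was below 1 FPKM and so not tested in 4 of them, and DESeq2 gave it no adjusted p. In the 4 that leave out a library, a lone library is assumed to vary like the other group. The exception was the replicate block (the replicate number as a second term in edgeR), under which 2 were called, KLF5 at 0.10 (adjusted p 0.0095) and GRHL3 at -0.30 (adjusted p 0.0072). That fit left few degrees of freedom and called 1216 genes higher and 1655 lower, 19% of those tested, and 65 listed genes. The labels do not say that a number marks a shared culture or day. The deviations of same-numbered libraries correlated at 0.15 across 15113 genes, weighed alike whatever their counts, from 2 pairs. Count differences, as chi-square per degree of freedom, were 11.2 between the replicates 1 and 9.29 between the replicates 2 of the groups. Between unlike numbers they were 12.8 (TCN1_OE replicate 1) and 17.5 (TCN1_OE replicate 2), and within groups 7.65 (TCN1_OE) and 7.55 (NC). Whether the libraries are paired was not tested. GRHL3 stayed negative (-0.37 to -0.24) and KLF5 positive (0.052 to 0.15) under every alternative; under the other alternatives their adjusted p was at least 0.306 and 0.597.

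The other 7 factors each changed sign under some alternative. Leaving out a library in turn gave -0.021 to 0.020 for TP63, -0.097 to 0.099 for TFAP2A, -0.025 to 0.0030 for GRHL2, -0.14 to 0.32 for GRHL1, -0.035 to 0.074 for KLF4, -0.17 to 0.24 for ZNF750 and -0.35 to 0.086 for OVOL1. With no filter TP63 stood at -0.014 and TFAP2A at -0.0081, and with genes of at least 1 FPKM GRHL2 stood at 0.0058. None of these sign changes passed a test.

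Counts of all genes called higher and lower, 43 and 32, and of listed genes besides the factors, 6, moved more; the cause was not tested. They were 69 and 63 with library totals only, 95, 109 and 10 with DESeq2, and 200, 275 and 16 without a filter. With genes of at least 1 FPKM 14 were lower, and FN1 missed the threshold. Limma called 1 and 0 genes and 0 listed genes at each pseudocount, and 0 and 0 without a filter, when TCN1 was not called either (adjusted p 0.280). Leaving out a library gave 104 to 188 higher, 106 to 142 lower and 9 to 13 listed genes. The 6 listed genes kept their direction throughout, with limma adjusted p of 0.077 or more where limma tested them. ZNF750 had the fewest counts and the widest interval.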
